A study of Homo sapiens with 42 samples.

Results

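The genes described here are 42 listed human genes that are known either as interferon-stimulated genes or as parts of MHC class I antigen presentation, followed across all 10 whole-cell groups of the study. They were taken by symbol from a table of 60606 genes, and all 42 were found in it. A mean of at least 1 TPM over the 30 whole-cell libraries was reached by 32 of them, and these 32 entered the tests. The other 10 were OAS1, OAS2, OASL, DDX60, IFI27, IFI44L, MX1, MX2, BST2 and IFITM1, which are given by level only.

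The study measured polyadenylated RNA from AC16 cells, a human line whose label is cardiomyocyte-like, in which the ribosomal protein gene RPL3 was knocked down and its muscle paralog RPL3L was supplied. All cells carried a doxycycline-inducible hairpin introduced by lentivirus and selected with hygromycin, and all were given doxycycline at 1 µg per ml. The shScramble group carried a scrambled hairpin and the shRPL3 group a hairpin against RPL3. The RPL3L-WT group carried the shRPL3 hairpin plus wild-type RPL3L, and the groups G27D, R161W, T189M, P291L, D308N, D308V and R343W carried the same hairpin plus RPL3L with the named amino acid change. Cells with the RPL3L construct were selected by sorting for BV421, with nothing stated on clones, and for P291L the label also calls the variant doxycycline-inducible. Each group had 3 libraries. Since the labels do not state whether the 3 were grown as separate cultures, the spread behind each p-value may be technical only.

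RPL3 itself stood at 1534 to 1611 TPM in shScramble and at 499.6 to 570 TPM in shRPL3, while RPL3L reached 2145 to 5198 TPM in the construct libraries. RPL3 was higher in R161W (a log2 fold change of 1.25 against RPL3L-WT) and in T189M (0.85) than in RPL3L-WT. The library shRPL3 3 also held construct RNA, with RPL3L at 121 TPM. Separately, a component of 337 pseudogene levels set 6 libraries apart from the other 24. These are T189M 1, T189M 2, R161W 1, G27D 3, RPL3L-WT 2 and RPL3L-WT 1. They are called the second kind here, because the labels do not name them, and a term for the kind is in every test. In second-kind libraries 4 of the 32 tested genes stood higher and 13 lower (12.5% and 40.6%), against 14.5% and 43.3% of all 14426 genes tested. IRF1 was shifted by 1.10 and ISG15 by -0.68 on the log2 scale, so the library values of genes that shifted are given by kind where a group holds both. IFITM3 (-0.03) and TRIM25 (0.05) did not pass the test for a shift and are given without the kind, and group means pool both kinds. Of 10 cardiomyocyte markers, 9 averaged under 1 TPM in every group, with MYH6, NPPA and MYL7 at 0 in shScramble, and all 7 fibroblast markers were expressed (1861 to 2087 TPM summed in shScramble). The fibroblast sum ranged from 1099 to 1230 TPM in R343W up to 2651 to 3088 TPM in R161W; in shRPL3 it was 2158 to 2412 TPM, with COL1A1 at 1231, 1204 and 1414 TPM against 764, 614 and 651 TPM in shScramble and COL3A1 at 234 to 253 TPM against 331 to 348 TPM. Of 8 leukocyte markers, 6 averaged under 1 TPM in shScramble and 7 in shRPL3, with CD3E at 0, and their sum went from 118.5 to 132.5 TPM down to 63.0 to 67.8 TPM, nearly all of it CD68 (131, 117 and 121 TPM, then 62.6, 62.2 and 67.3 TPM). The 4 endothelial markers summed to 1.02 to 1.11 TPM in shScramble and 0.297 to 0.472 TPM in shRPL3. The 4 epithelial markers, of which 2 averaged under 1 TPM in each of these groups, summed to 219.2 to 246.4 TPM and 216.2 to 234.5 TPM. In P291L the epithelial sum was 416 to 432.7 TPM. The part of these markers in the results below was not tested. The 3 markers of plasmacytoid dendritic cells, the professional interferon producers, were at or near 0 throughout (at most 0.091 TPM summed).

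As background, type I interferons bind a receptor at the cell surface, and the JAK1 and TYK2 kinases then activate STAT proteins, of which STAT2 joins IRF9 in a factor that binds the interferon-stimulated response element. Type II interferon acts through the gamma-activated site, and IRF1 is among its classic direct targets. The induced genes encode sensors of foreign RNA, proteins that block virus entry, translation or replication, the ubiquitin-like modifier ISG15 with its ligases, and the MHC class I pathway, in which TAP1 carries peptides to HLA heavy chains paired with the light chain B2M. Many cells, fibroblasts included, express a low level of these genes without infection.

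The promoters of these genes were searched for the letters of the response element and of the gamma-activated site. Many of the genes were listed as known interferon-stimulated genes. A high share with these letters could therefore follow from the choice alone and is no independent result. The windows below are shown because 6 of them belong to genes called in the knockdown. The other, of B2M, belongs to the most abundant gene of the set, which was not called there. RefSeq promoter windows (GRCh38.p14, from 250 bases before to the first bases after a start site) were found for 35 of the 42 genes. The core of the response element (GAAA, any 2 bases, GAAA, on either strand) was present for 21 of the 35 genes, or 60.0%, counting any promoter of a gene. Counted per promoter it was present in 24 of their 43, or 55.8%, beside 1061 of 35116 promoters of the whole table, or 3.02%. The gamma-activated pattern (TTC, any 3 bases, GAA, which reads the same on both strands) was present for 11 of the 35 genes, or 31.4%. Per promoter it was present in 12 of the 43, or 27.9%, beside 6.57% of all promoters. Neither pattern was required to avoid the other, and a match is a description of the letters only. Each sequence is written along the gene's strand with the pattern in capitals.
OAS3 (chr12:112938321-112938350, + strand): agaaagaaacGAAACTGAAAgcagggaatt
IFI44 (chr1:78649761-78649790, + strand): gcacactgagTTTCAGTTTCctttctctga
IFI6 (chr1:27672329-27672358, - strand): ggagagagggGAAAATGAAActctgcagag
ISG20 (chr15:88638937-88638966, + strand): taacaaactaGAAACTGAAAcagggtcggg
IFIT3 (chr10:89327865-89327894, + strand): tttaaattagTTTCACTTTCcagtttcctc
B2M (chr15:44711369-44711398, + strand): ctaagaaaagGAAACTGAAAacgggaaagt
IRF1 (chr5:132490878-132490907, - strand): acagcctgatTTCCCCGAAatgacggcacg
The first 6 hold the response element core and the IRF1 window holds the gamma-activated pattern without a response element core. In IFI44 and IFIT3 the core lies on the opposite strand. IFI6, IFIH1 and HERC5 held 3 matches of the core within a window. OAS3, DDX60, IFIT1, IFIT3, IFIT5, IFI27, IFI44L, BST2, IFITM3, ISG15, TAP1 and B2M held 2 each. Among them IFIT5 and TAP1 rose in the knockdown, and HERC5, IFITM3 and B2M were not called there.

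Several of these genes lie next to each other, and their values are not independent of the counting. In GENCODE 29 (GRCh38), OAS3 lies at chr12:112938352-112973249 between OAS1 (chr12:112906777-112933222) and OAS2 (chr12:112978395-113011723). IFIT2, IFIT3, IFIT1 and IFIT5 lie side by side on chromosome 10. PARP9 (chr3:122527924-122564577) and DTX3L (chr3:122564238-122575203) overlap on opposite strands, and PARP14 (chr3:122680618-122730840) follows. The annotated IFITM2 gene overlaps IFITM1, and HLA-B overlaps HLA-C, so the division of reads within a pair is uncertain. Whether the counting used strand is not given in the sources used here.

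In cells with the scrambled hairpin the set spanned a wide range of levels, compared here per transcript length as TPM. B2M, the invariant light chain, was the highest, at 818, 905 and 933 TPM. IFITM3, which blocks virus entry at endosomes, followed with 310.0, 289 and 279.8 TPM, and HLA-B, HLA-C and HLA-E stood at 149, 142 and 157 TPM, 152, 127 and 144 TPM and 101, 99.2 and 105 TPM. STAT2 was at 48.7, 46.1 and 39.4 TPM and ISG15 at 40.0, 36.0 and 43.6 TPM. Genes often read as reporters of an interferon response were much lower: MX1, a dynamin-like GTPase that traps viral nucleocapsids, was at 0.394, 1.01 and 0.478 TPM, and IFI44L at 0.203, 0.114 and 0.0341 TPM. Of the ligands, IFNB1 averaged 0.0630 TPM in shScramble and 0 in shRPL3, and IFNL1, IFNL2 and IFNL3 were listed at 0 in every group. TPM keep no depth, so no limit can be set on what a value of 0 allows.

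Across the groups, shScramble held the highest mean of 21 of the 42 genes, R161W of 5, and no gene was highest in shRPL3 or P291L. The 42 include the 10 genes under the filter, and the same counts over all genes of the table were not made. The lowest mean was in D308V for 10 genes and in D308N and T189M for 8 each. These means pool both kinds of library, and over first-kind libraries alone D308V was lowest for 11 genes, T189M and shRPL3 for 6 each and D308N for 5, while shScramble was highest for 22. The widest ranges of group means on the log2(TPM + 1) scale belonged to IFI44 (1.81) and IRF1 (1.69), followed by OAS3 (1.45).

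**Figure D1:**
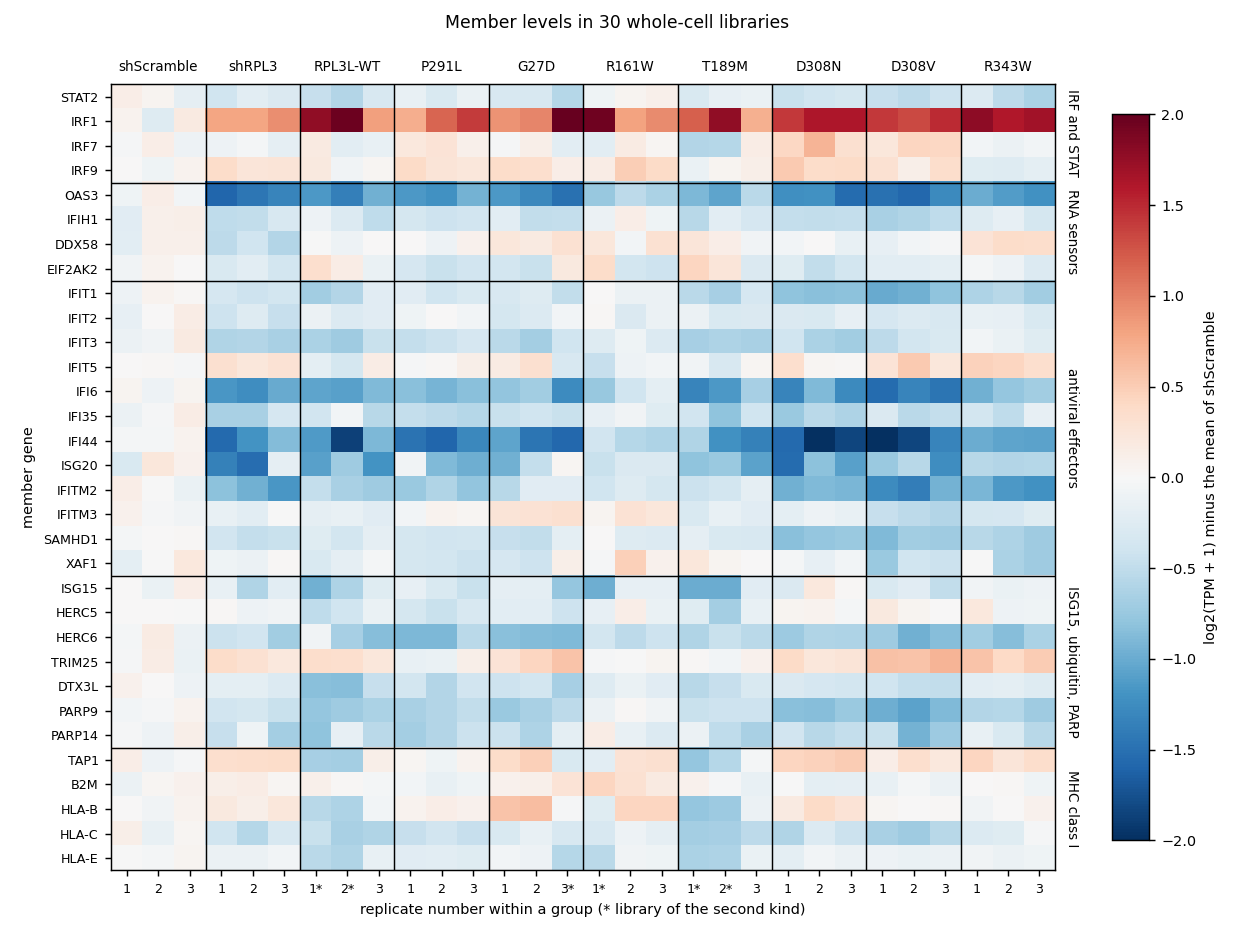
Each row is 1 of the 32 tested genes and each column 1 library, coloured by log2(TPM + 1) minus the mean of shScramble (blue lower, red higher, limits -2 and 2), with a star at libraries of the second kind. OAS3, IFI6 and IFI44 are blue in every group other than shScramble, and IRF1 is red in every one of them.

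Most of the set was lower after knockdown of RPL3 without replacement. In shRPL3 against shScramble, 21 of the 32 tested genes fell and 6 rose, where 24.5% of all genes tested fell and 24.4% rose. The median log2 fold change was -0.345 for the 32 genes and -0.008 for all genes. Fold changes are differences of log2(TPM + 1), so for genes near 1 TPM they come out smaller than the true change, and in these bulk samples fewer cells expressing a gene and less RNA per cell cannot be told apart.

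All 4 tested RNA sensors fell in the knockdown. OAS3, which makes the oligoadenylates that switch on RNase L, was at 9.83, 11.6 and 10.1 TPM in shScramble and at 2.82, 3.20 and 3.61 TPM in shRPL3. The 2 groups lay far apart, with a log2 fold change of -1.45 (SE 0.11, limma, Benjamini-Hochberg adjusted p = 1.21e-10), the largest of the set. DDX58, the RNA helicase RIG-I, fell by 0.50 and IFIH1, the related helicase known as MDA5, by 0.44 on the log2 scale, from 2.15, 2.98 and 3.03 TPM to 1.60, 1.63 and 1.96 TPM. EIF2AK2, the kinase PKR, which stops translation when it meets double-stranded RNA, fell by 0.30. These 3 were chosen for naming after their values were seen. Of the sensors under the filter, OAS1 was at 0.372, 0.794 and 0.423 TPM against 0.242, 0.244 and 0.295 TPM, and OASL at 0.560, 0.348 and 0.652 TPM against 0.267, 0.281 and 0.247 TPM. DDX60, a helicase relative of these sensors, was at 2.04, 2.33 and 1.57 TPM against 0.699, 0.719 and 0.787 TPM. In these 3 the groups did not overlap, but how many genes of the whole table do so was not counted. OAS2, the other sensor under the filter, overlapped fully, at 0.176, 0.0624 and 0.367 TPM in shScramble and 0.276, 0.226 and 0.147 TPM in shRPL3. None of the 4 entered the reported tests. The alternative fits with a lower filter or none did include them, and those values are not given here.

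Among the transcription factors the directions differed. STAT2 was at 33.7, 38.3 and 36.3 TPM in shRPL3, every library below the lowest of shScramble, with a fold change of -0.30 (SE 0.08, limma, Benjamini-Hochberg adjusted p = 0.00295). IRF1, which activates interferon and antigen presentation genes, went the other way, from 11.9, 9.21 and 12.8 TPM to 20.2, 20.1 and 22.3 TPM. Here too the groups did not overlap. The fold change of IRF1 was 0.84 (SE 0.15, limma, Benjamini-Hochberg adjusted p = 8.47e-05). IRF9 rose by 0.29 (adjusted p = 0.00417), so the partners STAT2 and IRF9 of the same complex moved in opposite directions, and IRF7 did not pass the test (-0.11).

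Of the 12 tested antiviral effectors, 9 fell and 1 rose. IFI44 went from 14.2, 14.0 and 15.3 TPM to 4.29, 5.77 and 7.52 TPM, a fold change of -1.20 (SE 0.23, limma, Benjamini-Hochberg adjusted p = 0.000102). IFI6, which limits virus replication at the endoplasmic reticulum, went from 53.5, 47.7 and 53.6 TPM to 22.6, 21.2 and 25.2 TPM, or -1.13 (SE 0.10, limma, Benjamini-Hochberg adjusted p = 1.95e-09). Neither gene had a knockdown library near the range of the controls. IFITM2, an entry inhibitor, stood at 59.6, 53.8 and 49.4 TPM and then at 30.0, 27.4 and 23.6 TPM, or -0.98 (SE 0.11, limma, Benjamini-Hochberg adjusted p = 1.13e-07). Its near copy IFITM3 did not pass the test (-0.12). IFIT3, which binds viral RNA together with IFIT1, fell by 0.61 and IFI35 by 0.54. IFIT1, and SAMHD1 and IFIT2, which lie outside the naming rule here, fell by 0.37 to 0.44. ISG20, an RNA exonuclease, was at 0.524, 0.358 and 2.45 TPM in shRPL3 against 2.16, 3.54 and 3.12 TPM in shScramble, and here the third knockdown library, the one holding construct RNA, lay inside the control range. Its fold change was -1.02 (SE 0.29, limma, Benjamini-Hochberg adjusted p = 0.00518), and -1.44 without that library. IFIT5 was the effector that rose, from 14.6, 14.7 and 14.2 TPM to 18.4, 17.1 and 17.8 TPM (0.27, adjusted p = 0.0135).

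The ISG15, ubiquitin and ADP-ribose group had 5 genes that fell, 1 that rose and 1 that did not pass. ISG15 itself was at 40.0, 36.0 and 43.6 TPM in shScramble and 35.9, 25.9 and 34.1 TPM in shRPL3, and the groups just failed to meet. Its fold change of -0.32 (SE 0.12, limma, Benjamini-Hochberg adjusted p = 0.0282) was a modest one. HERC6, a ligase of the family that attaches ISG15, fell by 0.50 (adjusted p = 0.00609). TRIM25, a ubiquitin ligase that acts on RIG-I, rose from 23.1, 26.1 and 21.4 TPM to 30.6, 29.3 and 27.2 TPM (0.29, adjusted p = 0.00415).

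MHC class I was divided. TAP1, the peptide transporter, rose from 16.1, 13.5 and 14.4 TPM to 18.7, 19.0 and 19.2 TPM, with no overlap. Its fold change was 0.35 (SE 0.07, limma, Benjamini-Hochberg adjusted p = 0.000361). HLA-B rose slightly, from 149, 142 and 157 TPM to 171, 162 and 174 TPM (0.18, adjusted p = 0.00363). HLA-C, named after its values were seen, fell from 152, 127 and 144 TPM to 106, 94.0 and 112 TPM (-0.43, adjusted p = 0.000187). HLA-B and HLA-C, whose annotations overlap, thus moved apart. B2M, at 964, 979 and 912 TPM in shRPL3, did not pass the test (0.11). Across all 32 genes the count of calls was 24 to 27 when any 1 library was left out, and 26 without shRPL3 3. Without the kind term the fold changes were the same but 18 genes were called. The calls of IRF1, TAP1, IFIT5 and HLA-B, 4 of the 6 that rose, were lost, and with them those of ISG15, PARP14, HLA-E, DTX3L and EIF2AK2, and in a fit of these 2 groups alone ISG20 no longer passed.

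**Figure D2:**
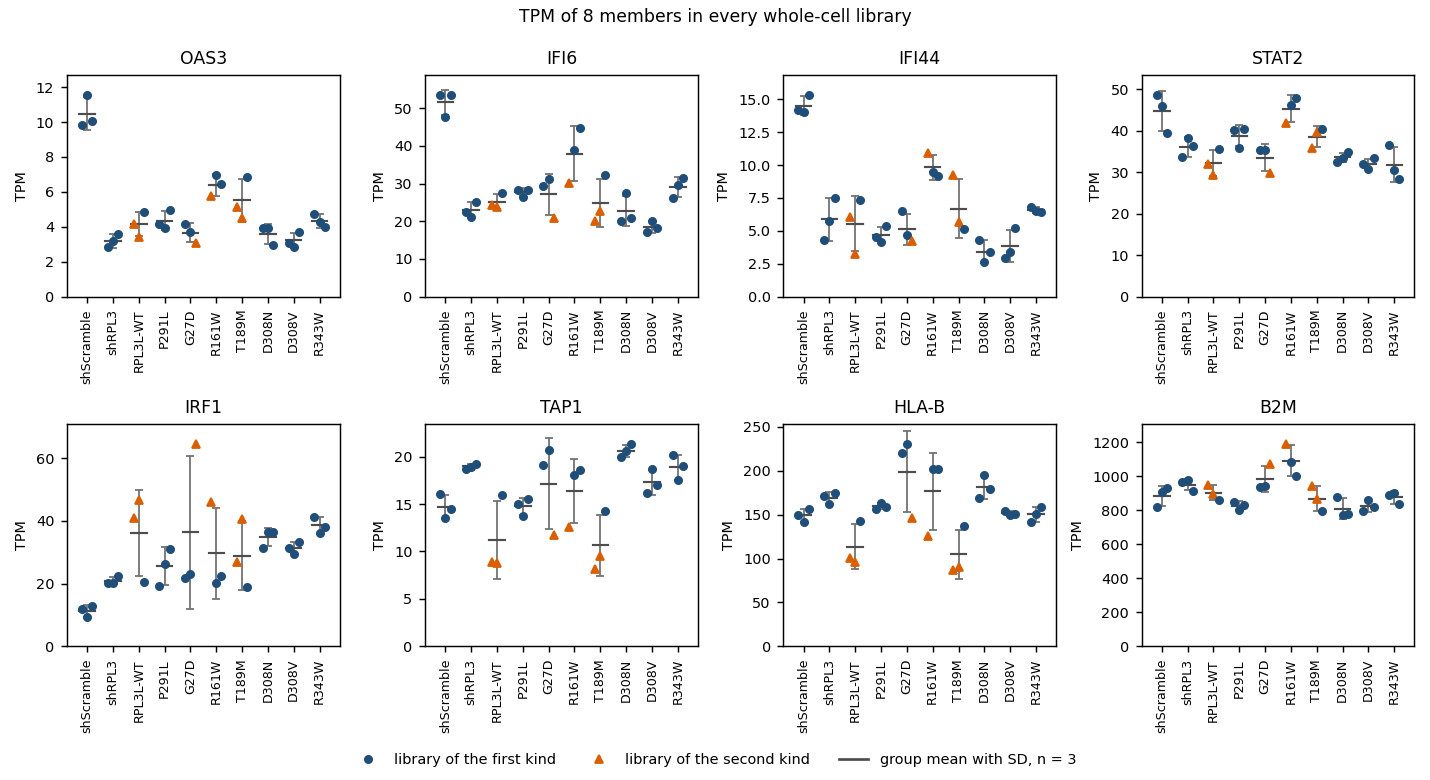
Each panel plots the TPM of 1 gene (linear axis from 0) in every library of the 10 groups, with circles for the first kind, triangles for the second, and the group mean with its SD (n = 3). OAS3, IFI6 and IFI44 have their highest libraries in shScramble, and the second-kind libraries lie high for IRF1 and low for TAP1 and HLA-B within their groups.

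Read by direction of call, the core of the response element gave small numbers. Of the genes that fell in the knockdown, 18 had a RefSeq promoter and 10 of these held the core. Of the 6 that rose, 2 held it, and of 4 that were not called, 3 held it.

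Supplying wild-type RPL3L to knockdown cells moved few of these genes. In RPL3L-WT against shRPL3, 4 of 32 rose and 5 fell, beside 6.27% of all genes that rose and 20.1% that fell. The genes' median was -0.041 and that of all genes -0.099. The balance depended on the scaling. With median-ratio scaling 11.1% of all genes rose and 8.53% fell, the medians were 0.073 and 0.005, and of the 32 genes 4 rose and 1 fell, with the lower calls of TAP1, PARP9, B2M and HLA-B lost. The shRPL3 libraries are shared with the knockdown comparison, so the values of both stand side by side. OAS3 was at 4.87 TPM in the first-kind library and 4.17 and 3.44 TPM in the second-kind libraries, against 2.82, 3.20 and 3.61 TPM in shRPL3, with a fold change of 0.49 (SE 0.12, limma, Benjamini-Hochberg adjusted p = 0.0051). It remained under every shScramble library. IFI6 was at 27.4 TPM in the first-kind library and 24.4 and 23.7 TPM in the second-kind libraries (0.42, adjusted p = 0.00865), DDX58 rose by 0.41 and IFITM2 by 0.37. DTX3L fell by 0.34, PARP9, its partner in an ADP-ribosylation complex, by 0.30, TAP1 by 0.32, B2M by 0.19 and HLA-B by 0.18. For TAP1 the first-kind library stood at 16.0 TPM and the second-kind libraries at 8.90 and 8.79 TPM, all under the shRPL3 libraries. Leaving out 1 library ended the call of DDX58 (0.30) without RPL3L-WT 3, of IFITM2 (0.28 to 0.38) without any 1 of shRPL3 2, shRPL3 3 and RPL3L-WT 1, of B2M (-0.18 to -0.16) without any 1 of shRPL3 1, shRPL3 2 and RPL3L-WT 2, of HLA-B (-0.16 to -0.13) without either of shRPL3 3 and RPL3L-WT 3. No call was made in a fit of the 2 groups alone and 3 in first-kind libraries, where RPL3L-WT has 1 library that is assumed to vary like the others; without the kind term OAS3 (0.29), IFI6 (0.13) and B2M (-0.08) were not called.

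Knockdown cells with wild-type RPL3L were below the scrambled control for most of the set. In RPL3L-WT against shScramble, 19 of 32 fell and 2 rose, with 29.1% of all genes falling and 15.6% rising. The median was -0.300 for the genes and -0.092 for all genes. With median-ratio scaling 20.9% of all genes fell and 22.7% rose, and of the 32 genes 14 fell and 3 rose, with medians of -0.216 and 0.006. This comparison shares its controls with the knockdown comparison and its RPL3L-WT libraries with the one before, so the 3 sets of values are not independent. IFI44 was at 7.34 TPM in the first-kind library and 6.06 and 3.26 TPM in the second-kind libraries, against 14.2, 14.0 and 15.3 TPM in the control, and its fold change was -1.25 (SE 0.25, limma, Benjamini-Hochberg adjusted p = 0.000286). ISG20 was at 0.701 TPM in the first-kind library and 0.836 and 1.38 TPM in the second-kind libraries (-1.20, adjusted p = 0.00406). OAS3 fell by 0.96 and IFI6 by 0.72, each less than in the knockdown alone, a difference tested above. PARP9 fell from 7.67, 7.88 and 8.51 TPM to 4.81 TPM in the first-kind library and 4.28 and 4.53 TPM in the second-kind libraries (-0.70, adjusted p = 6.86e-07), without overlap. PARP14, a mono-ADP-ribosyltransferase, fell by 0.68, HERC6 by 0.62 and IFITM2 by 0.61. IRF1 was at 20.5 TPM in the first-kind library and 40.7 and 46.6 TPM in the second-kind libraries, all above the control libraries, and rose by 0.79 (adjusted p = 0.000701) once the kind was allowed for, against 1.52 without the kind term. TRIM25 rose by 0.27. Omitting a single library ended the call of TRIM25 (0.20) without shScramble 3, of HERC6 (-0.40) without RPL3L-WT 3. In first-kind libraries alone, with 1 RPL3L-WT library, TRIM25 (0.22), PARP14 (-0.54), SAMHD1 (-0.18), IFIT1 (-0.23), IFIT2 (-0.22) and EIF2AK2 (-0.13) did not pass. There IFI35 stood at -0.56, against -0.35 with all libraries. A fit of the 2 groups alone made 7 calls.

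The variants were each compared with RPL3L-WT. All 7 comparisons use the same 3 RPL3L-WT libraries, of which 1 is of the first kind, so they are given side by side and not as independent results.

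P291L differed from RPL3L-WT in none of the 32 genes by limma with Benjamini-Hochberg adjustment, and 4 genes had an unadjusted p under 0.05. Of all genes, 0.825% rose and 1.16% fell. The largest fold change, 0.55 for ISG20, came with P291L libraries at 2.69, 1.12 and 0.983 TPM that spread wider than the difference. OAS3 was at 4.18, 3.95 and 4.94 TPM (-0.14), IRF1 at 19.1, 26.3 and 31.1 TPM (0.30) and HLA-B at 157, 164 and 159 TPM (0.10), and none of these passed. Leaving out P291L 3, or the kind term, gave 1 lower call.

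In G27D, 4 of the 5 MHC class I genes were higher than in RPL3L-WT, and HLA-E (0.04) was not called. In G27D against RPL3L-WT, 5 of 32 rose and none fell (11 had an unadjusted p under 0.05), beside 4.31% and 6.02% of all genes. The fifth gene that rose was IFITM3. HLA-B was at 221 and 230.1 TPM in the first-kind libraries and 146 TPM in the second-kind library, and in RPL3L-WT at 143 TPM in the first-kind library and 101 and 96.4 TPM in the second-kind libraries. Within each kind every G27D library was above every RPL3L-WT library, and the fold change was 0.59 (SE 0.05, limma, Benjamini-Hochberg adjusted p = 1.7e-08). IFITM3 was at 351, 358 and 366 TPM against 259, 263 and 251 TPM, the highest mean of all 10 groups, with a fold change of 0.47 (SE 0.06, limma, Benjamini-Hochberg adjusted p = 9.9e-06). TAP1 was at 19.1 and 20.7 TPM in the first-kind libraries and 11.7 TPM in the second-kind library (0.36, adjusted p = 0.00279). HLA-C rose by 0.28 and B2M by 0.18. HLA-B and IFITM3 kept their calls in all 15 alternatives run, while leaving out 1 library ended that of HLA-C (0.19 to 0.28) without any 1 of RPL3L-WT 2, RPL3L-WT 3, G27D 2 and G27D 3, of B2M (0.15 to 0.19) without any 1 of RPL3L-WT 1, RPL3L-WT 2, G27D 1, G27D 2 and G27D 3. Leaving out RPL3L-WT 2, G27D 2 or G27D 3 left 3 calls, and without the kind term TAP1 (0.58), HLA-C (0.31) and B2M (0.12) were not called, nor were they in first-kind libraries alone (0.30, 0.38 and 0.13).

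R161W, the group with the highest RPL3 among the construct groups, had the most higher calls of the variants. Its RPL3 stood at 1686 and 1570 TPM in the first-kind libraries, about the level of shScramble (1534 to 1611 TPM). In its second-kind library it was at 1059 TPM. In RPL3L-WT RPL3 was at 673 TPM in the first-kind library and 445 and 439 TPM in the second-kind libraries. An effect of the variant therefore cannot be told apart from that of the RPL3 level. In R161W against RPL3L-WT, 15 of 32 rose and 1 fell, beside 16.1% and 8.87% of all genes, and the median was 0.296 against 0.054 for all genes. Median-ratio scaling turned the balance of all genes to 11.0% higher and 14.4% lower, while 14 of the 32 genes rose and 2 fell, with a median of 0.236. By role, 4 of 5 MHC class I genes, 5 of 12 effectors, 3 of 7 of the ISG15, ubiquitin and ADP-ribose group, 2 of 4 transcription factors and 1 of 4 sensors rose. PARP9 was at 8.13 and 7.57 TPM in the first-kind libraries and 7.30 TPM in the second-kind library against 4.81 TPM in the first-kind library and 4.28 and 4.53 TPM in the second-kind libraries. No R161W library came near the RPL3L-WT range, and the fold change was 0.64 (SE 0.08, limma, Benjamini-Hochberg adjusted p = 2.69e-06). STAT2 was at 46.3 and 48.0 TPM in the first-kind libraries and 41.9 TPM in the second-kind library against 35.6 TPM in the first-kind library and 32.0 and 29.3 TPM in the second-kind libraries, again without overlap, with a fold change of 0.42 (SE 0.08, limma, Benjamini-Hochberg adjusted p = 0.000551). That is about the level of the scrambled control (48.7, 46.1 and 39.4 TPM). IFI44 was at 9.46 and 9.13 TPM in the first-kind libraries and 10.9 TPM in the second-kind library (0.76, adjusted p = 0.0197) and OAS3 at 6.99 and 6.43 TPM in the first-kind libraries and 5.75 TPM in the second-kind library (0.42, adjusted p = 0.00794). Both were above every RPL3L-WT library and below every shScramble library.

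DTX3L rose by 0.44 and PARP14 by 0.50 in R161W, so that the neighbours PARP9, DTX3L and PARP14 rose together. HLA-B was at 202 and 202 TPM in the first-kind libraries and 126 TPM in the second-kind library, with a fold change of 0.42 (SE 0.05, limma, Benjamini-Hochberg adjusted p = 1.57e-06), and IFI6 at 39.0 and 44.8 TPM in the first-kind libraries and 30.2 TPM in the second-kind library (0.41, adjusted p = 0.00523). B2M reached 1086 and 1002 TPM in the first-kind libraries and 1187 TPM in the second-kind library, the highest mean of the 10 groups. TRIM25, at 23.0, 23.3 and 24.3 TPM, was the gene that fell (-0.28, adjusted p = 0.0167), to within the range of shScramble. PARP9, STAT2 and HLA-B kept their calls in all 15 alternatives. Leaving out 1 library ended the call of IFI44 (0.50 to 0.60) without either of RPL3L-WT 2 and R161W 1, of PARP14 (0.32 to 0.49) without any 1 of RPL3L-WT 1, R161W 1 and R161W 2, of OAS3 (0.37) without R161W 1, of IFI6 (0.28) without RPL3L-WT 3, of TRIM25 (-0.23) without R161W 1, and without R161W 1 the count was 10, all higher. In first-kind libraries alone, with 1 RPL3L-WT library, 9 genes were called, all higher. There PARP9 stood at 0.61, STAT2 at 0.39 and HLA-B at 0.49, while IFI44 (0.30), OAS3 (0.39), DTX3L (0.29), PARP14 (0.33), TAP1 (0.19), IFIT3 (0.27), IFIT1 (0.12) and TRIM25 (-0.20) were not called. A fit of the 2 groups alone called 7. Between second-kind libraries, 1 of R161W and 2 of RPL3L-WT, the untested log2 differences were 0.62 for PARP9, 0.44 for STAT2, 0.49 for OAS3, 1.12 for IFI44 and 0.35 for HLA-B.

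Some genes that rose in R161W had fallen in the knockdown, in 2 comparisons with no library in common. Of the 21 genes that fell in shRPL3, 10 rose in R161W, or 47.6% of the first list and 66.7% of the second. Of all genes tested, 3539 fell in shRPL3 and 1352 of these rose in R161W, or 38.2%, which are 58.1% of the 2326 that rose there. The shares of the interferon and antigen presentation genes lie near those of all genes, and nothing particular to them is read from the overlap. The 10 genes were OAS3, IFI44, IFI6, IFIT1, IFIT3, STAT2, DTX3L, PARP9, PARP14 and HLA-C. TAP1, HLA-B and IRF9 rose in both comparisons, and no gene fell in both.

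**Figure D3:**
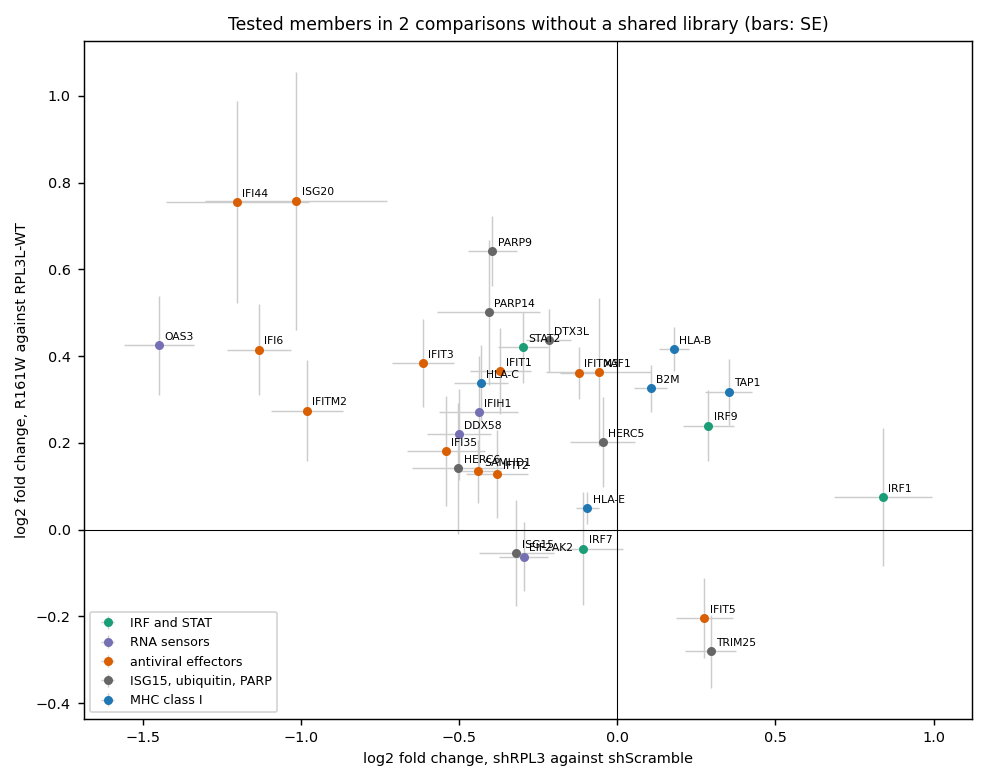
Each point is 1 of the 32 tested genes, placed by its log2 fold change in shRPL3 against shScramble (x axis) and in R161W against RPL3L-WT (y axis), with SE bars and colours by role. OAS3, IFI44 and IFI6 lie at the upper left (-1.45 and 0.42 for OAS3), TRIM25 lies at the lower right, and IRF1 lies far right near 0 on the y axis.

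T189M, the other group with more RPL3 than RPL3L-WT, gave few calls. In T189M against RPL3L-WT, 3 of 32 rose and 1 fell, beside 7.51% and 3.08% of all genes, and the median was -0.024 against 0.042. The share that rose is near that of all genes. With median-ratio scaling 4.62% of all genes rose and 5.93% fell, and 2 of the 32 genes rose and 2 fell. PARP9 was at 5.75 TPM in the first-kind library and 5.62 and 5.75 TPM in the second-kind libraries, above every RPL3L-WT library, with a fold change of 0.28 (SE 0.08, limma, Benjamini-Hochberg adjusted p = 0.0239). DTX3L rose by 0.27 and STAT2, at 40.4 TPM in the first-kind library and 35.8 and 39.7 TPM in the second-kind libraries, by 0.25. TRIM25 was at 24.0, 22.6 and 24.9 TPM and fell (-0.28, adjusted p = 0.0288). Beside these stand the R161W values of 0.64 for PARP9, 0.44 for DTX3L, 0.42 for STAT2 and -0.28 for TRIM25, from a comparison that shares the RPL3L-WT libraries. None of the 4 calls was made without the kind term or in first-kind libraries alone. Leaving out 1 library ended the call of PARP9 (0.24 to 0.28) without any 1 of RPL3L-WT 1, RPL3L-WT 2, T189M 1, T189M 2 and T189M 3, of DTX3L (0.24 to 0.25) without any 1 of RPL3L-WT 1, RPL3L-WT 2 and T189M 2, of STAT2 (0.20 to 0.29) without any 1 of RPL3L-WT 1, RPL3L-WT 2, RPL3L-WT 3, T189M 1, T189M 2 and T189M 3, of TRIM25 (-0.28 to -0.23) without any 1 of RPL3L-WT 1, RPL3L-WT 2, T189M 1 and T189M 2, which left no call without RPL3L-WT 1, RPL3L-WT 2 or T189M 2 and 1 without T189M 1.

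With replacement of the aspartate, 3 of 12 effectors in D308N and 5 of 12 in D308V were lower than with wild-type RPL3L, and IRF1 was higher in both. In D308N against RPL3L-WT, 5 of 32 rose and 4 fell, beside 17.5% and 12.8% of all genes. In D308V against RPL3L-WT, 2 rose and 7 fell, beside 16.2% and 12.7%. The medians were 0.010 and -0.023, against 0.041 and 0.018 for all genes. For D308N both shares lie near those of all genes, and nothing particular to the set is read from its counts. With median-ratio scaling 13.9% of all genes rose and 16.0% fell in D308N, and 3 of the 32 genes rose and 5 fell. SAMHD1, which destroys the nucleotides that viruses need for DNA synthesis, was at 22.4, 23.4 and 24.0 TPM in D308N and 21.7, 24.7 and 24.5 TPM in D308V against 35.8 TPM in the first-kind library and 34.3 and 31.6 TPM in the second-kind libraries. All 6 variant libraries lay below the RPL3L-WT libraries. Its fold changes were -0.44 (SE 0.08, limma, Benjamini-Hochberg adjusted p = 0.000148) and -0.42 (SE 0.08, limma, Benjamini-Hochberg adjusted p = 0.000268), called in all 15 alternatives of each, but without RPL3L-WT 3 they were -0.27 and -0.25. IFIT1, which binds uncapped viral RNA, was at 2.34, 2.27 and 2.31 TPM and 1.90, 1.99 and 2.32 TPM against 3.96 TPM in the first-kind library and 2.60 and 2.89 TPM in the second-kind libraries, all lower, with -0.44, adjusted p = 0.00289 and -0.55, adjusted p = 0.000393. IFI6 fell by 0.44 in D308N and by 0.72 in D308V, where its libraries were at 17.2, 20.1 and 18.1 TPM. OAS3 fell by 0.36 and 0.48.

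IRF1 was at 31.4, 36.4 and 36.4 TPM in D308N and 31.3, 29.5 and 33.4 TPM in D308V, between the first-kind and second-kind libraries of RPL3L-WT. With the kind allowed for it rose by 0.76 (adjusted p = 0.00166) and 0.62 (adjusted p = 0.0088). Without the kind term, which pools both kinds of RPL3L-WT library, the values were 0.03 and -0.11. Neither passed, and in this alternative alone the direction in D308V reversed. Every library of both variants stood above the first-kind RPL3L-WT library (20.5 TPM) and below the second-kind libraries (40.7 and 46.6 TPM). In D308N, TAP1 (0.43), HLA-B (0.28), IRF9 (0.26) and DTX3L (0.23) also rose. In D308V, TRIM25 rose by 0.34, and IFITM2 (-0.58), IFITM3 (-0.35) and PARP9 (-0.28) fell. Leaving out 1 library ended the call in D308N of IRF9 (0.14 to 0.23) without any 1 of RPL3L-WT 2, RPL3L-WT 3 and D308N 1, of DTX3L (0.21 to 0.23) without any 1 of RPL3L-WT 1, RPL3L-WT 2, D308N 1 and D308N 2, of IFIT1 (-0.29) without RPL3L-WT 3, of OAS3 (-0.36 to -0.25) without any 1 of RPL3L-WT 1, RPL3L-WT 3 and D308N 3, and in D308V of TRIM25 (0.30) without RPL3L-WT 3, of PARP9 (-0.23 to -0.22) without either of RPL3L-WT 3 and D308V 2. Without the kind term IFI6 (-0.15) and OAS3 (-0.16) in D308N and OAS3 (-0.29) in D308V did not pass, in first-kind libraries IFI6 (-0.27), OAS3 (-0.36) and DTX3L (0.13) in D308N did not, and fits of the 2 groups alone called 2 and 5 genes.

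The 2 replacements of the same aspartate were also compared directly, in libraries that are all of the first kind. In D308N against D308V, 3 of 32 were higher and 1 lower, beside 4.07% and 4.19% of all genes, with a median of 0.113 against 0.012. With median-ratio scaling 3.43% of all genes were higher and 5.73% lower, and 2 of the 32 were higher and 1 lower. IFITM3 was at 254, 273 and 265 TPM in D308N and 213, 204 and 194 TPM in D308V, without overlap, and the difference was 0.37 (SE 0.06, limma, Benjamini-Hochberg adjusted p = 0.000202), called in all 15 alternatives. HLA-B was at 169, 196 and 179.6 TPM against 154, 149 and 151 TPM (0.26, adjusted p = 0.00148), also without overlap. TAP1 was higher in D308N by 0.24 and TRIM25 lower by 0.33. For IRF1 (0.14) and SAMHD1 (-0.02) no difference was called. With 1 library omitted, calls were lost for TAP1 (0.20 to 0.26) without any 1 of D308N 1, D308N 2, D308N 3, D308V 1 and D308V 3, and for TRIM25 (-0.31 to -0.29) without any 1 of D308N 2, D308N 3 and D308V 3. The count was 7 without D308N 1 and 2 without D308N 2 or D308N 3, and without the kind term, through its spread alone, HLA-B (0.26), TAP1 (0.24) and TRIM25 (-0.33) did not pass.

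In R343W IRF1 was higher, and 2 of 12 effectors rose and 2 fell. In R343W against RPL3L-WT, 7 of 32 rose and 3 fell, beside 18.8% and 12.6% of all genes, with a median of 0.059 against 0.038. These shares are near those of all genes, and with median-ratio scaling 15.0% of all genes rose and 15.9% fell, and 6 of the 32 genes rose and 5 fell. IRF1 was at 41.3, 36.2 and 38.0 TPM, the highest mean of the 10 groups, with a fold change of 0.91 (SE 0.17, limma, Benjamini-Hochberg adjusted p = 0.000293), but 0.17 and not called without the kind term. IFIT3 was at 9.48, 8.89 and 8.22 TPM against 6.99 TPM in the first-kind library and 6.04 and 5.66 TPM in the second-kind libraries (0.44, adjusted p = 0.00377), and DDX58 at 5.16, 5.63 and 5.51 TPM against 4.16 TPM in the first-kind library and 4.10 and 3.79 TPM in the second-kind libraries (0.42, adjusted p = 0.00592). Both were above every RPL3L-WT library. DTX3L (0.34), HLA-C (0.33), TAP1 (0.31) and IFIT5 (0.27) also rose. IRF9 was at 16.7, 16.5 and 17.4 TPM, the lowest of any group, against 20.5 TPM in the first-kind library and 23.1 and 18.9 TPM in the second-kind libraries (-0.39, adjusted p = 0.00152). IFITM2 fell by 0.48 and SAMHD1 by 0.28. With a single library omitted, calls were lost for HLA-C (0.23 to 0.25) without either of RPL3L-WT 3 and R343W 3, for IFIT5 (0.24 to 0.29) without any 1 of RPL3L-WT 2, RPL3L-WT 3, R343W 1 and R343W 2, for SAMHD1 (-0.12) without RPL3L-WT 3. In first-kind libraries 4 calls were made, with IFIT3 (0.30), DDX58 (0.32), DTX3L (0.24), TAP1 (0.23), IFIT5 (0.26), IFITM2 (-0.38) and IRF9 (-0.27) not passing, and a fit of the 2 groups alone made 2.

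**Figure D4:**
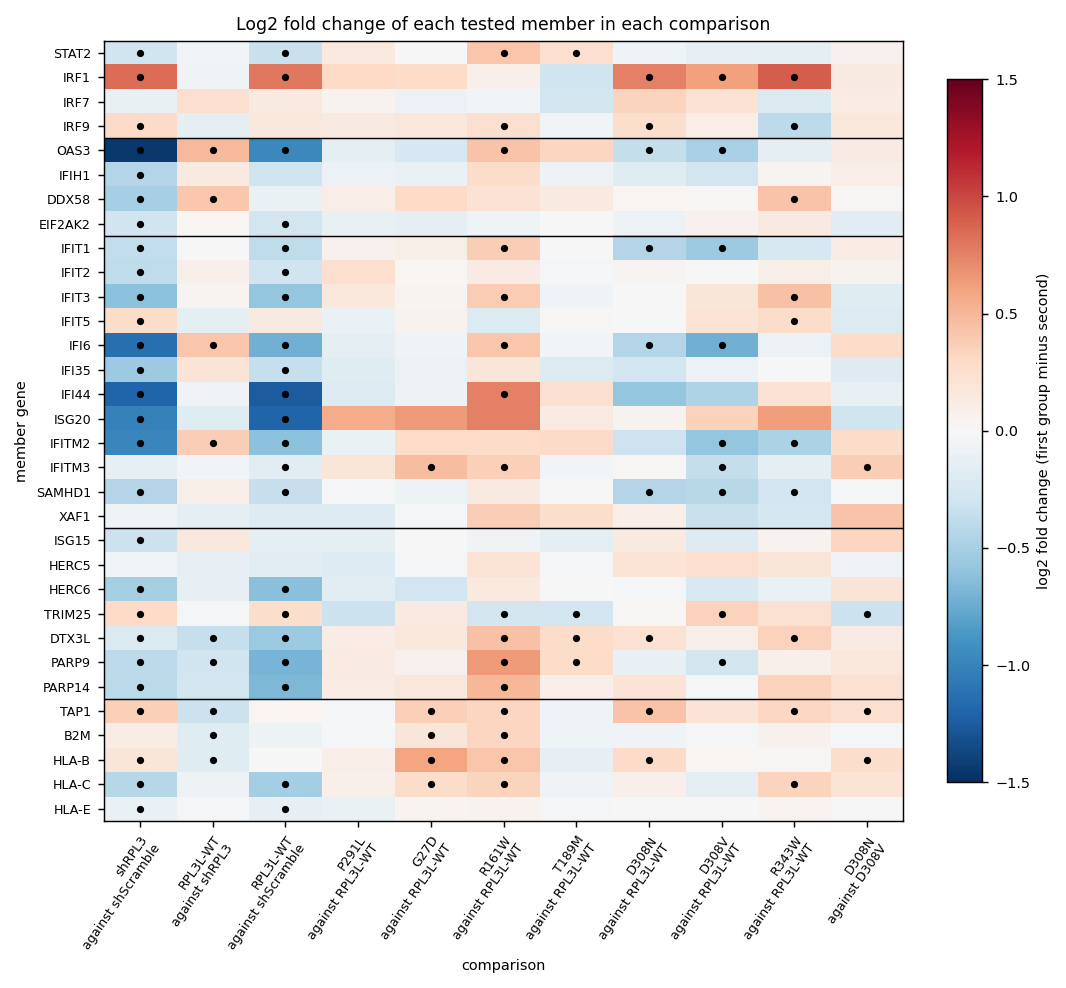
Each row is 1 of the 32 tested genes and each column 1 of the 11 comparisons, coloured by log2 fold change (first group minus second, limits -1.5 and 1.5), with a dot where the adjusted p is under 0.05. The first column holds 27 dots, the P291L column none, and the R161W column 15 red cells with dots and 1 blue one.

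Set in order of group means, the genes followed different sequences. For OAS3 the order ran from shScramble (10.5 ± 0.941 TPM, mean ± SD, n = 3) through R161W (6.39 ± 0.621) and T189M (5.51 ± 1.22) down to D308V (3.22 ± 0.447) and shRPL3 (3.21 ± 0.397). The libraries of R161W and T189M overlapped, as did those of D308V and shRPL3, while no group overlapped shScramble. For IFI6 it ran from shScramble (51.6 ± 3.37) through R161W (38.0 ± 7.36) down to D308V (18.5 ± 1.48). STAT2 was highest in R161W (45.4 ± 3.14) and shScramble (44.8 ± 4.80), which overlapped. B2M varied least of these, from 809.8 ± 60.9 in D308N to 1092 ± 92.8 in R161W. ISG15 ranged from 24.2 ± 8.24 in T189M, whose second-kind libraries were both at 19.4 TPM, to 39.9 ± 3.79 in shScramble and 39.6 ± 6.99 in D308N. IFIT1 was highest in shScramble (4.84 ± 0.354) and lowest in D308V (2.07 ± 0.222). Over first-kind libraries alone, T189M (1 library at 6.87 TPM) stood above R161W (6.71) for OAS3, B2M was lowest in T189M (794) and ISG15 in D308V (31.2). MX1, under the filter, had group means from 0.219 ± 0.0955 in shRPL3 to 1.16 ± 0.917 in RPL3L-WT, the latter carried by 1 library at 2.22 TPM. BST2, the tetherin that holds budding virus, stayed at or under 0.313 TPM, OAS2 at or under 0.367 TPM and MX2 at or under 1.13 TPM in all 30 libraries. IFI27 ranged up to 1.84 TPM and IFITM1, whose reads cannot be cleanly told from IFITM2, up to 3.66 TPM. Of the tested genes, XAF1, a promoter of apoptosis, the ISG15 ligase HERC5 and IRF7 were called in none of the 11 comparisons by limma with Benjamini-Hochberg adjustment, with an unadjusted p under 0.05 in 2, 1 and 2 of them.

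Other genes of the interferon and antigen presentation pathways were followed as a list of 77. Of 60 tested in the knockdown, 28 fell and 10 rose (46.7% and 16.7%, beside 24.5% and 24.4% of all genes). LGALS3BP, a secreted glycoprotein induced by interferon, fell from a mean of 44.4 to 18.9 TPM (-1.19, adjusted p = 3.29e-10), GBP2, a guanylate-binding GTPase, by 1.03, DHX58, a regulator of RIG-I and MDA5, by 1.00 and SAMD9L by 0.80. Among those that rose were SOCS1, the feedback inhibitor of JAK signalling (0.54), the DNA sensor CGAS (0.39), IRF3 (0.36) and the RNA-binding antiviral protein ZC3HAV1 (0.34). By list, 6 of 9 sensing genes, 11 of 21 other interferon-stimulated genes, 8 of 16 antigen presentation genes and 3 of 14 ligand, receptor and signalling genes fell, the last a share no higher than that of all genes.

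With wild-type RPL3L against the knockdown, 8 of the 60 rose and 8 fell (13.3% each way, beside 6.27% and 20.1% of all genes). With median-ratio scaling 11.1% of all genes rose and 8.53% fell. The 60 were not counted under this or any other alternative, in any comparison. SAMD9L (0.54), GBP3 (0.49), LGALS3BP (0.47) and GBP1 (0.37) rose, and IFI16, a DNA sensor (-0.62), CGAS (-0.48) and PLSCR1 (-0.48) fell. Against shScramble, 28 fell and 6 rose in RPL3L-WT (46.7% and 10.0%, beside 29.1% and 15.6% of all genes). With median-ratio scaling 20.9% of all genes fell there and 22.7% rose. TAPBPL (-0.98), the peptide-trimming ERAP2 (-0.86), RNF213 (-0.75) and LGALS3BP (-0.72) led the lower side. SOCS1 (0.53), IRF3 (0.47), PSME2 (0.28) and IFNGR1 (0.26) led the higher.

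Among the variants against RPL3L-WT, R161W again had the most higher calls, 23 of 60 with none lower (38.3%, beside 16.1% of all genes higher and 8.87% lower). With median-ratio scaling 11.0% of all genes were higher in R161W and 14.4% lower. GBP2 (0.84), TAPBPL (0.76), TRIM22 (0.74) and ERAP2 (0.62) were among the 23, and 9 of 16 antigen presentation genes rose. In G27D 6 rose and 6 fell (10.0% each way, beside 4.31% and 6.02% of all genes), and 3 of 16 antigen presentation genes rose and 2 fell. Among the 60 the immunoproteasome subunit PSMB8 (0.38), IFI16 (0.30) and PSME2 (0.25) rose, and GBP3 (-0.46), CALR (-0.41), PDIA3 (-0.35) and GBP1 (-0.31) fell. CALR and PDIA3 are chaperones that load peptides onto class I molecules in the endoplasmic reticulum. In the other variants the log2 fold change of CALR was -0.80 in D308N, -0.45 in R343W, -0.41 in D308V and -0.11 in P291L. It was 0.26 in T189M and 0.09 in R161W, and all these values are given whether or not they were called. Its levels in D308N were 520.4, 524 and 522 TPM, against 912 TPM in the first-kind library of RPL3L-WT and 1197 and 1113 TPM in the second-kind libraries. PSMB8 rose in D308N (0.36), D308V (0.34) and R343W (0.50), and GBP1 and GBP2 fell in D308N (-0.82 and -1.02) and D308V (-0.71 and -0.76).

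The counts of pathway genes higher and lower were 2 and 1 in P291L, 4 and 3 in T189M, 10 and 12 in D308N, 8 and 16 in D308V, 11 and 11 in R343W, and 6 and 5 in D308N against D308V. In D308N the 16.7% that rose lies near the 17.5% of all genes, and the 20.0% that fell stands beside 12.8%. In R343W the 18.3% each way stands beside 18.8% and 12.6%, in D308V 13.3% and 26.7% beside 16.2% and 12.7%, in T189M 6.67% and 5.00% beside 7.51% and 3.08%, in P291L 3.33% and 1.67% beside 0.825% and 1.16%, and in D308N against D308V 10.0% and 8.33% beside 4.07% and 4.19%. In that last comparison the immunoproteasome subunit PSMB9 (0.71) and SOCS1 (0.53) were higher in D308N, and CALR (-0.39) was lower.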

How the data were processed

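Polyadenylated RNA of 30 whole-cell libraries was analysed; 12 nuclear libraries were not used here. The values are TPM per gene as deposited by the authors in 1 table that sums to 1e+06 per library, so the depth of each library is unknown. Per the submitters' processing notes, the tools included kallisto, bedtools, Bowtie and bcl2fastq 2.19, with no role stated. What build, transcript set and strand setting lay behind the TPM is not given in the sources used here.

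Groups and replicate numbers came from the labels' titles. After 6 construct entries were left out, 14426 genes with a mean of at least 1 TPM were tested on log2(TPM + 1) with limma 3.58.1 (R 4.3.3; trend and robust moderation, two-sided, Benjamini-Hochberg adjustment, called under 0.05) in 1 model of the 10 groups and the library kind, with 19 residual degrees of freedom. The kind was set from component 1 of 337 pseudogenes at its widest gap (14.04, the next 1.99). In libraries with the construct, the ratio of its EBFP2 to its rtTA3 level was 0.971 to 1.05 in the first kind and 1.43 to 1.57 in the second. The script was tested on simulated data with known changes.

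The 42 genes, their roles and the other pathway list were chosen with earlier results of these data known. For each comparison the text names up to 8 called genes each way by size of fold change and up to 4 other pathway genes, plus B2M, HLA-B, TAP1, ISG15, IFIT1, OAS3, MX1, STAT2, IRF1 and IFI6 across the groups and the 2 genes with the widest range of group means. Some pathway genes that this rule takes are not reported here. Alternatives were no kind term, pseudocounts of 0.5 and 0.1, a filter of 0.1 TPM and none, median-ratio scaling, the replicate block, each comparison's 2 groups alone, each library left out, and, chosen after seeing the data, first-kind libraries alone. Residuals of libraries that share a number did not correlate above 0.1 throughout in any comparison, so the numbers were not taken to pair libraries. Promoter windows are from RefSeq (GRCh38.p14) and gene positions from GENCODE 29; figures were drawn with matplotlib 3.10.9.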

Additional observations from a re-analysis of the deposited data

Results flagged for a closer look

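The construct's EBFP2 sequence, which the comparisons do not use, was at 434 TPM in the library shRPL3 3 and at 0 in the 3 shScramble libraries and the other 2 shRPL3 libraries. The level is 5.18% of the lowest construct library, and construct libraries ranged from 8373 to 19655 TPM. Without this library 26 of the 32 genes were called in shRPL3 against shScramble, 6 higher and 20 lower, and 7 in RPL3L-WT against shRPL3. Its part in any result was not tested further.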

How the results depend on the processing

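For the called genes of the 42 that the rule of up to 8 each way names, 1245 fold changes were recomputed. Of these, 1036 kept their direction and call, 208 kept the direction but lost the call, and 1 reversed. The reversed value was IRF1 in D308V against RPL3L-WT, at -0.11 without the kind term. The other pathway genes, and genes named outside this rule, are not in this count. Counts of called genes are compared here with those of the report. Shared replicate numbers were not taken to mark a pairing. A library's best match by residuals had its own number 6 times in P291L against RPL3L-WT and 5 times in D308V against RPL3L-WT. The correlations there were at most 0.054. In the other comparisons this happened 0 to 3 times. With the replicate block the counts were 26 in shRPL3 against shScramble (27 without it), 9 in R343W against RPL3L-WT and 3 in D308N against D308V. In the other 8 comparisons they were as reported. For shRPL3 against shScramble the count stayed between 18 (no kind term) and 29 (filter of 0.1 TPM). Fits with that filter or none also admit genes of the 42 beyond the 32, so their counts come from more genes. For RPL3L-WT against shRPL3 (9) it was 5 under median-ratio scaling, 0 with only the 2 groups and 3 in first-kind libraries. With only the 2 groups, a fit with fewer samples, it was 7 for RPL3L-WT against shScramble, 2 for G27D, 7 for R161W, 0 for T189M, 2 for D308N, 5 for D308V, 2 for R343W and 2 for D308N against D308V. Without the kind term it was 1 for P291L, 2 for G27D, 0 for T189M and 1 for D308N against D308V; the cause was not tested. In first-kind libraries it was 3 for G27D, 9 for R161W, 0 for T189M and 4 for R343W. With a filter of 0.1 TPM it was 3 for G27D, and with no filter 3 for G27D and 2 for T189M. Leaving out 1 library gave 0 to 1 for P291L, 3 to 5 for G27D, 10 to 15 for R161W, 0 to 4 for T189M and 2 to 7 for D308N against D308V. TPM carry no read counts, so counting error could not be separated from the spread between libraries, which matters most for genes near 1 TPM.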
